A study of Danio rerio with 48 samples.

Results

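A set of 36 zebrafish transcripts had opposite responses to chromium and cobalt after 24 h of exposure. They were chosen by their measured values, out of 21903 transcripts on the array, of which 9416 had a mean log2 intensity of 6.5 or more in at least 1 group. The values of all probes of a transcript were averaged, and the difference from control was the mean of the 4 exposed arrays minus the mean of the 4 control arrays of the same metal. A transcript was selected when this difference was 0.35 or more at all 3 doses of one metal and -0.35 or less at all 3 doses of the other. Of the 36, 18 were higher in chromium and lower in cobalt (the chromium-up set) and 18 were lower in chromium and higher in cobalt (the cobalt-up set). A further 3 met these limits but were left out because they were lower by 1.5 or more at every chromium dose. Since the chromium and cobalt values chose the members, their differences from control are described here without a test.

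Adult zebrafish (Danio rerio) of 6 to 9 months were kept for 24 h in flow-through aquaria at measured nickel concentrations of 42.4, 51.0 and 64.0 mg/L, chromium concentrations of 56.5, 69.9 and 80.6 mg/L, or cobalt concentrations of 39.7, 46.3 and 59.5 mg/L, called low, mid and high for each metal. RNA of whole fish was pooled, labelled with Cy3 and read on one-colour arrays, 4 for each of the 9 exposures. The controls, at 0 mg/L, were 4 pools shared by nickel and chromium, each read on a nickel-labelled and on a chromium-labelled array, and 4 separate cobalt control arrays. The labels give no strain, sex, number of fish per pool, salt or oxidation state of the metal, and they do not say whether replicates came from separate aquaria. P-values therefore measure the spread between pools on arrays, which may be technical.

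Cobalt and nickel ions are known to interfere with the prolyl hydroxylases that mark hypoxia-inducible factor for breakdown, and so to switch on genes of the response to low oxygen. Chromium in its chromate form is known to enter cells through anion transporters and to be reduced inside them, which produces reactive species and DNA damage. Both are background, and the labels do not say which form of chromium was in the water. Gene symbols do not stand beside the transcript IDs in the files and 0 IDs matched the tables at hand, so no role can be given for a member, no pathway list could be counted, and the labelled source, whole fish, could not be checked against marker genes. Transcripts are given by their ID.

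Across all 48 arrays, between 66.2% and 68.5% of probes lay above a log2 intensity of 5, taken as the background limit, and the array medians lay between 5.62 and 5.66. With 4 arrays per group, the precision of a mean is limited by that number. The cobalt arrays stood apart in their spike-in signal, with a mean log2 intensity of 8.69 ± 0.09 (SD, n = 4) on the cobalt controls against 10.96 ± 0.22 on the chromium-labelled and 10.94 ± 0.21 on the nickel-labelled controls. Differences from control were taken within each metal's own arrays.

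Opposite responses were a small part of what both metals did. At the same limits of difference and level, 1026 transcripts were higher and 986 lower at every chromium dose, and 1062 were higher and 881 lower at every cobalt dose. Transcripts that went the same way in both metals numbered 559 on the higher side, 54.5% of the chromium list and 52.6% of the cobalt list. On the lower side they numbered 301, 30.5% of the chromium list and 34.2% of the cobalt list. The chromium-up set made up 1.75% of the transcripts higher in chromium and 2.04% of those lower in cobalt. With the 3 that were left out, 21 transcripts were lower in chromium and higher in cobalt, 2.13% of the chromium list and 1.98% of the cobalt list. Without any limit on the size of the difference, the 9416 transcripts that reached a level of 6.5 were counted by side. At every dose, 834 were on the higher side in chromium and the lower side in cobalt, and 299 were the reverse. The median difference of these 9416 was 0.07, 0.06 and 0.05 at low, mid and high chromium. In cobalt it was -0.02, -0.03 and -0.02. The unequal counts of 834 and 299 were not tested.

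The median difference from control of the chromium-up set was 0.95, 0.75 and 0.75 at low, mid and high chromium, and -1.26, -1.07 and -1.17 at low, mid and high cobalt. Single members ranged from 0.39 at mid chromium to 2.05 at the same dose, and down to -3.93 at high cobalt. The cobalt-up set had medians of -1.08, -0.91 and -0.84 in chromium and 0.71, 0.87 and 0.77 in cobalt, with members between -1.76 at low chromium and 1.91 at high cobalt. Over all 21903 transcripts, the median difference lay between 0 and 0.02 in the 6 groups. In whole-fish RNA, a smaller share of cells of a type and less RNA per cell cannot be told apart.

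**Figure D1:**
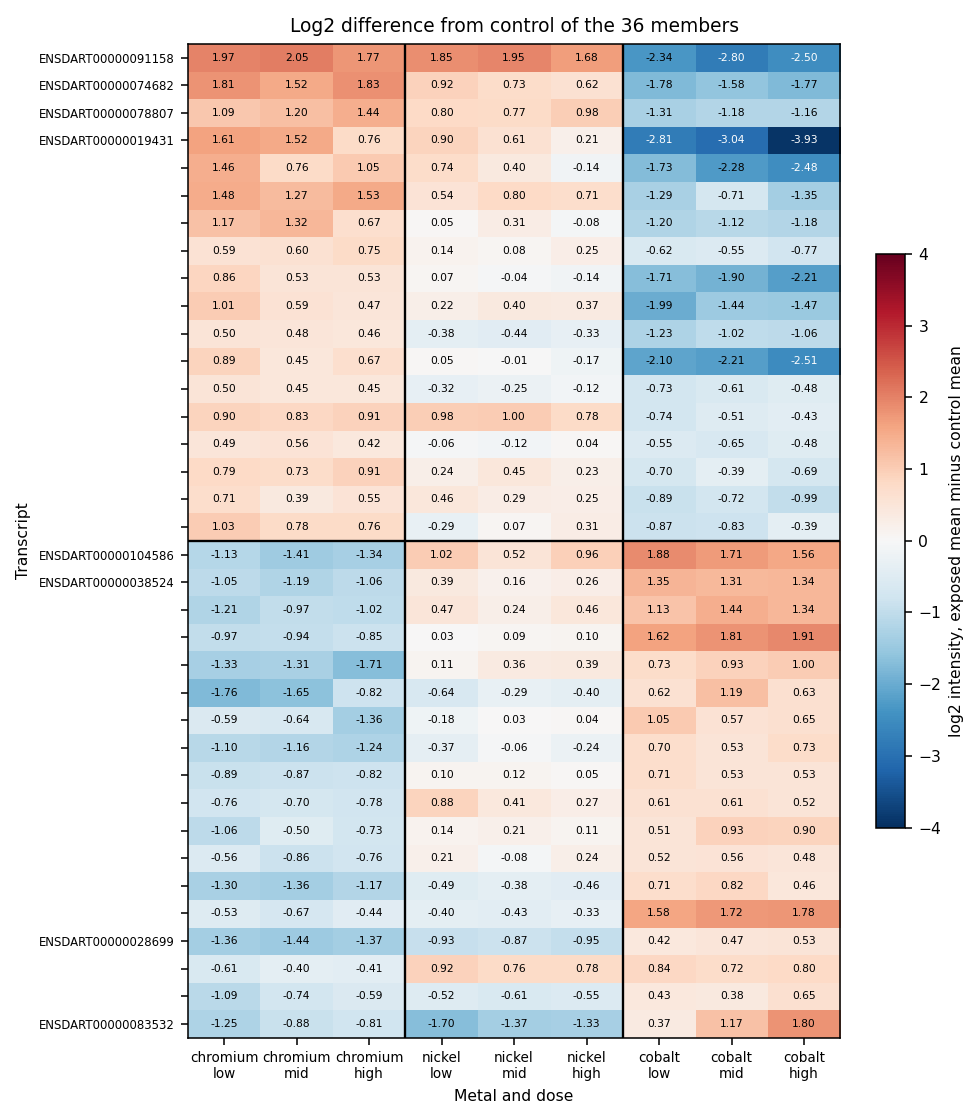
Log2 difference from control (mean of 4 exposed arrays minus mean of 4 control arrays) for the 36 transcripts in rows, at low, mid and high doses of chromium, nickel and cobalt in columns; red is higher and blue lower than control, and transcripts given array by array in the text carry their ID. The upper 18 rows are positive in chromium and negative in cobalt and the lower 18 the reverse, as the choice of members fixes. The nickel columns, whose differences the choice did not use but whose control pools it shared, hold values from -1.70 to 1.95.

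The transcript with the largest guaranteed difference, meaning the largest value of its smallest difference over the 6 groups, was ENSDART00000091158 in the chromium-up set. Its log2 intensity was 10.97, 10.51, 10.22 and 9.54 on the chromium-labelled control arrays and 11.88, 12.85, 12.00 and 12.37 at low chromium. At mid chromium it was 12.26, 12.77, 12.31 and 12.12, and at high chromium 11.88, 11.92, 12.51 and 12.01. All 12 exposed arrays lay above all 4 controls, with mean differences of 1.97, 2.05 and 1.77, or 3.90-fold, 4.15-fold and 3.41-fold. On the cobalt control arrays it was 11.24, 10.34, 11.18 and 10.54, and at low cobalt 8.72, 7.89, 8.29 and 9.04. It was 8.10, 7.84, 8.49 and 7.67 at mid cobalt and 8.41, 8.06, 8.39 and 8.46 at high cobalt. All 12 cobalt-exposed arrays lay below all 4 cobalt controls, with differences of -2.34, -2.80 and -2.50, a 5.05-fold, 6.95-fold and 5.64-fold lower signal.

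ENSDART00000074682, second in the chromium-up set by the same measure, read 7.52, 8.07, 7.88 and 7.51 on the chromium-labelled controls and 9.14, 9.59, 9.83 and 9.66 at low chromium. The arrays of mid chromium gave 9.33, 9.28, 9.42 and 9.05, and those of high chromium 9.58, 9.52, 9.65 and 9.54. Again no exposed array reached down to the controls, and the differences were 1.81, 1.52 and 1.83. Cobalt controls read 7.06, 6.65, 7.56 and 7.28, low cobalt 5.36, 5.41, 5.45 and 5.21, mid cobalt 5.92, 4.94, 5.91 and 5.45, and high cobalt 5.03, 5.94, 5.53 and 4.96. Every cobalt-exposed array was below every cobalt control, with differences of -1.78, -1.58 and -1.77. Since 2 of these arrays were at or below the background limit, the size of the cobalt difference is limited by the lowest signal the array resolves.

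In the cobalt-up set the leading transcript was ENSDART00000104586, at 6.59, 6.39, 6.97 and 6.48 on the chromium-labelled controls and 5.39, 5.08, 5.46 and 5.98 at low chromium. Mid chromium gave 5.36, 5.10, 5.16 and 5.14, and high chromium 5.44, 5.13, 5.21 and 5.29. The exposed arrays were all below the controls and close to the background limit, with differences of -1.13, -1.41 and -1.34. Cobalt controls were 6.76, 6.36, 6.08 and 5.81, against 7.87, 8.02, 8.20 and 8.43 at low cobalt. The mid cobalt arrays read 7.54, 7.73, 8.43 and 8.17, and the high cobalt arrays 7.38, 7.27, 8.19 and 8.41. All of them were above all cobalt controls, by 1.88, 1.71 and 1.56 on average, or 3.67-fold, 3.28-fold and 2.95-fold.

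ENSDART00000038524 was second in the cobalt-up set. Its chromium-labelled controls were 9.42, 9.05, 9.52 and 9.70, with 8.36, 8.23, 8.53 and 8.38 at low, 8.18, 8.49, 8.16 and 8.12 at mid, and 8.12, 8.12, 8.79 and 8.43 at high chromium. The cobalt controls were 9.38, 8.97, 9.28 and 9.37, with 10.60, 10.73, 10.29 and 10.78 at low, 10.59, 10.38, 10.53 and 10.75 at mid, and 10.81, 10.42, 10.54 and 10.58 at high cobalt. Exposed and control arrays did not overlap in either metal. The differences were -1.05, -1.19 and -1.06 in chromium and 1.35, 1.31 and 1.34 in cobalt.

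**Figure D2:**
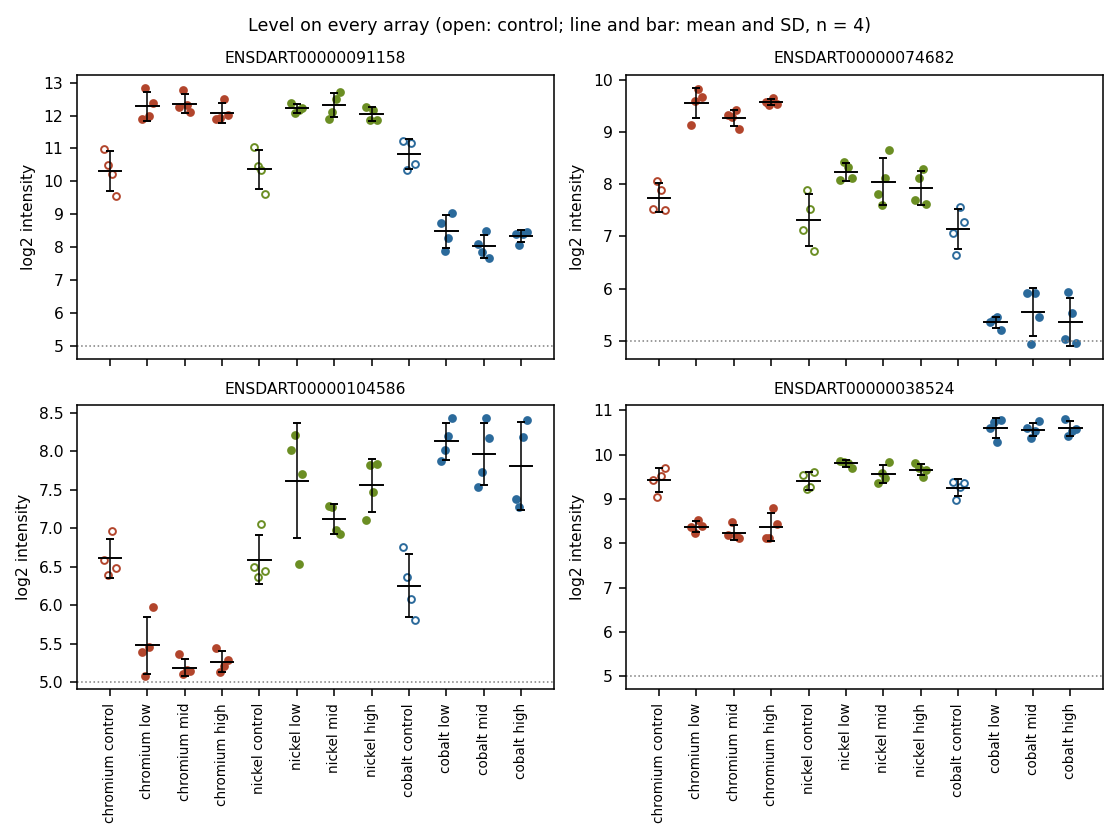
Log2 intensity on every array for the 2 leading transcripts of the chromium-up set (upper panels) and of the cobalt-up set (lower panels), by group; open points are control arrays, filled points exposed arrays, the horizontal line and bar are the mean and SD of 4 arrays, and the dotted line marks the background limit of 5. Exposed and control arrays do not overlap for chromium or cobalt in any panel, and for ENSDART00000091158 the nickel arrays lie above their controls as well.

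Counted over the members, 17 of 36 had exposed arrays that lay wholly on one side of the controls in all 6 comparisons, 10 in the chromium-up and 7 in the cobalt-up set. Of all 21903 transcripts, 3.25% did so in whatever direction. All 3 chromium comparisons were free of overlap for 23 members and 10.7% of all transcripts, and all 3 cobalt comparisons for 22 members and 8.3%. Set against the mean of the controls rather than each control array, 28 members had all 12 chromium arrays on one side and all 12 cobalt arrays on the other, as did 0.543% of all transcripts. The choice of members used the same arrays, and nothing is read from these shares. The median SD within a group of 4 was 0.24 over the members and 0.16 over the 9416 transcripts past the floor, and the highest in a member was 0.82.

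Array by array, the median over the chromium-up set lay between 0.52 and 1.05 on the 12 chromium arrays and between -1.56 and -0.83 on the 12 cobalt arrays. The median over the cobalt-up set lay between -1.10 and -0.87 on the chromium arrays and between 0.66 and 1.03 on the cobalt arrays. Control arrays gave medians between -0.25 and 0.21 for both sets. The choice of members, which asked for a difference of 0.35 or more at every dose, largely fixes this separation.

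In the chromium-up set the member just inside the limit had a smallest difference of 0.385 and the transcript just outside 0.349, and in the cobalt-up set these values were 0.368 and 0.314. ENSDART00000083532 was the cobalt-up member nearest the limit, through its difference of 0.37 at low cobalt, whereas its difference at high cobalt was 1.80. A limit of 0.25 in place of 0.35 gave 78 members, and a limit of 0.5 gave 19. ENSDART00000079314 of the cobalt-up set, named after its values were seen, was the only member at or below the background limit on a whole group. It was so on all 12 chromium-exposed arrays, so the size of its chromium differences of -0.89, -0.87 and -0.82 is not resolved. Its mean reached 6.5 only in the cobalt-exposed groups, at 6.73, 6.55 and 6.54, against 6.02 in the cobalt controls.

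Size did not follow dose in a uniform way. In the chromium-up set, the largest chromium difference was at the low dose in 9 members, at the mid dose in 3 and at the high dose in 6. For cobalt, the same set had its largest difference at the low dose in 9, the mid dose in 2 and the high dose in 7. The cobalt-up set divided into 8, 6 and 4 members for chromium and 5, 6 and 7 for cobalt, in the same order of doses. A difference that grew at each step from low to high was found in 2 and 4 members of the chromium-up set and in 2 and 5 of the cobalt-up set, for chromium and cobalt respectively.

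High was also compared with low within each metal, by limma with p-values adjusted over all 21903 transcripts at a threshold of 0.05. This comparison is only partly free of the choice of members, which bounded the difference from control at both doses. In chromium 0 of 36 members were called higher and 1 lower at the high dose, where 0.228% and 0.279% of all transcripts were called. In cobalt 1 was called higher and 0 lower, where 0.425% and 0.438% were. At an unadjusted p under 0.05, limma gave 3 members of each set in chromium, and 4 of the chromium-up and 2 of the cobalt-up set in cobalt. Those 6 of 36 members in each metal compare with 11.5% and 12.3% of all transcripts.

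The member called in chromium was ENSDART00000019431, which had the largest mean difference of the chromium-up set over the 6 groups. Its chromium-labelled controls were 9.14, 9.01, 9.07 and 9.06, and low chromium gave 10.24, 10.75, 10.74 and 10.97. Mid chromium gave 10.77, 10.74, 10.82 and 10.03, and high chromium 9.72, 9.79, 10.16 and 9.65. The high arrays were above every control but below every low array, a log2 difference of -0.84 ± 0.18 (SE, limma adjusted p = 0.0499). Both groups entered the choice of members, so the p-value is only partly free of it. Leaving out any single array of the 2 groups other than high chromium replicate 3 took the adjusted p above 0.05, up to 0.173. It was 0.0515 after quantile normalization. In cobalt the same transcript was at 9.88, 8.82, 9.48 and 9.15 on the controls and 7.25, 6.39, 6.01 and 6.44 at low cobalt. It was at 6.06, 5.66, 6.83 and 6.63 at mid cobalt and 5.13, 5.31, 5.47 and 5.70 at high cobalt. The cobalt differences were -2.81, -3.04 and -3.93, and the last, a 15.2-fold lower signal, was the largest of any member in any group. The high cobalt arrays were close to the background limit of 5, which may limit the size of that difference. The 4 high cobalt arrays were below the 4 low cobalt arrays, a difference of -1.12 ± 0.29 (SE) that did not pass the test (limma adjusted p = 0.0931).

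The member called in cobalt was ENSDART00000083532, with 5.92, 6.06, 5.56 and 5.52 on the cobalt controls and 6.10, 6.12, 6.37 and 5.94 at low cobalt. At mid cobalt it was 7.21, 7.16, 6.83 and 6.54, and at high cobalt 7.92, 8.48, 7.02 and 6.84. The low arrays overlapped the controls and the high arrays were above both, and high exceeded low by 1.43 ± 0.29 (SE, limma adjusted p = 0.0379). These arrays also entered the choice of members, so the p-value is only partly free of it. The adjusted p was above 0.05 without any single low cobalt array and without high cobalt replicate 1 or 2, reaching 0.122. In chromium its controls were 7.20, 7.09, 6.78 and 7.22 and the exposed arrays lay between 5.22 and 6.81, with 1 mid chromium array above the lowest control.

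The choice of members used no nickel difference. A level of 6.5 was asked of any group, nickel included, and all 36 members also reached it in a chromium or cobalt group. However, the nickel-labelled control arrays carry the same 4 pools as the chromium-labelled ones. A low value in those pools favours entry to the chromium-up set and also raises its nickel differences. A high value favours entry to the cobalt-up set and lowers its nickel differences. The nickel differences are therefore not independent of the choice. The chromium-up set had median nickel differences of 0.23, 0.36 and 0.24 at low, mid and high nickel, and the cobalt-up set 0.07, 0.06 and 0.07. Over all transcripts the medians were 0, -0.01 and -0.01. Averaged over 4 arrays, the median of the chromium-up set was 0.31 ± 0.17 (SD, n = 4), 0.35 ± 0.10 and 0.23 ± 0.10, and that of the cobalt-up set -0.04 ± 0.13, 0.03 ± 0.20 and 0.05 ± 0.17. The chromium-up median was above 0.11, the highest nickel control array, on all 12 nickel-exposed arrays, at 0.13 or more. The same pools on chromium-labelled arrays reached 0.21, however, and 5 of the 12 nickel arrays were below that value. The cobalt-up set had array medians on both sides of 0 at every nickel dose.

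By limma, with p-values adjusted over all transcripts, 6 members of the chromium-up set were higher at low nickel and 0 lower, and in the cobalt-up set 5 were higher and 6 lower. Over the whole array, 7.1% of transcripts were called higher and 6.51% lower in that comparison. At mid nickel the chromium-up set had 5 higher and 0 lower, and the cobalt-up set 1 higher and 4 lower, against 6.09% and 4.99% of all transcripts. At high nickel the counts were 3 higher and 0 lower, and 4 higher and 4 lower, against 8.09% and 6.82%. Without adjustment, 10, 9 and 8 members of the chromium-up set and 12, 8 and 11 of the cobalt-up set had a p under 0.05 at low, mid and high nickel, against 24.5%, 21.9% and 25.1% of all transcripts. In the chromium-up set 11 members were called at no nickel dose, and in the cobalt-up set 6, against 80.8% of all transcripts. The counts of higher calls changed when single arrays were left out. They went from 11 to 7 at low nickel without control replicate 1 or low nickel replicate 2, and from 7 to 4 at high nickel without high nickel replicate 2 or 4. At low nickel the count fell whichever array of the 2 groups was left out. A smaller group lowers power for any transcript, and the share of all transcripts is not given for these fits. Nothing is therefore read about the members from these changes. The background share includes transcripts below the level floor, all of which the choice of members had left out.

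Some members were called at every nickel dose. In the chromium-up set 3 of 18 rose at all 3 doses, and in the cobalt-up set 1 of 18 rose and 4 of 18 fell at all 3. Of all transcripts, 4.69% rose and 3.39% fell at every nickel dose. ENSDART00000091158 was 1 of the 3 that rose in the chromium-up set. It was at 11.04, 10.46, 10.34 and 9.61 on the nickel-labelled controls and 12.39, 12.07, 12.17 and 12.23 at low nickel. Its mid nickel arrays read 11.90, 12.12, 12.50 and 12.72 and its high nickel arrays 12.27, 11.85, 12.18 and 11.87. All were above all controls, and the difference at high nickel was 1.68 ± 0.24 (SE, limma adjusted p = 0.000194). Side by side, its high-dose differences were 1.68 in nickel, 1.77 in chromium and -2.50 in cobalt.

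ENSDART00000078807 rose with nickel from 6.98, 6.59, 6.30 and 6.13 on the controls to 7.48, 7.32, 6.86 and 7.53 at the low dose. It read 7.14, 7.25, 7.38 and 7.32 at the mid and 7.69, 7.46, 7.68 and 7.09 at the high dose. One low nickel array was within the range of the controls and the mid and high arrays were above it, with 0.98 ± 0.18 (SE) at high nickel (limma adjusted p = 0.00176). Its differences at the high dose of chromium and cobalt were 1.44 and -1.16.

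Among the members that fell at every nickel dose, ENSDART00000083532 had the largest difference. The nickel-labelled controls were 7.38, 7.72, 7.27 and 7.68, low nickel 5.77, 5.89, 5.49 and 6.11, mid nickel 5.97, 6.28, 5.74 and 6.58, and high nickel 6.12, 6.00, 6.60 and 5.99. No exposed array reached the controls, and the differences were -1.70, -1.37 and -1.33, with an SE of 0.19 and a limma adjusted p of 0.000182 at high nickel. For ENSDART00000028699 the controls were 9.88, 10.08, 10.02 and 9.87, low nickel 8.99, 8.86, 9.07 and 9.21, mid nickel 8.97, 9.23, 9.13 and 9.05, and high nickel 8.86, 8.84, 9.05 and 9.29. It fell by 0.93, 0.87 and 0.95 with no overlap (SE 0.10, limma adjusted p = 1.47e-05 at high nickel). In chromium its differences were -1.36, -1.44 and -1.37, and in cobalt 0.42, 0.47 and 0.53.

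The other lead transcripts were called at some nickel doses only. ENSDART00000074682 had nickel differences of 0.92, 0.73 and 0.62, with limma adjusted p-values of 0.0206, 0.0737 and 0.119, and only at the low dose were all nickel arrays above the controls. Without nickel-labelled control replicate 2 its high nickel value was 0.81 and passed the test (limma adjusted p = 0.0389). Without control replicate 4 it was 0.42 and did not pass (limma adjusted p = 0.322). With the mean of both arrays of each shared control pool it was 0.41 (limma adjusted p = 0.281). ENSDART00000104586 had 1.02, 0.52 and 0.96 (limma adjusted p = 0.0277, 0.327 and 0.0357), on the side of its cobalt and not of its chromium response. Its call at high nickel was lost without control replicate 1, 2 or 4 or high nickel replicate 2, 3 or 4, with a limma adjusted p of up to 0.0987. For ENSDART00000038524 the values were 0.39, 0.16 and 0.26 (limma adjusted p = 0.0211, 0.464 and 0.138). ENSDART00000019431 had 0.90, 0.61 and 0.21 (limma adjusted p = 0.000272, 0.00583 and 0.355).

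**Figure D3:**
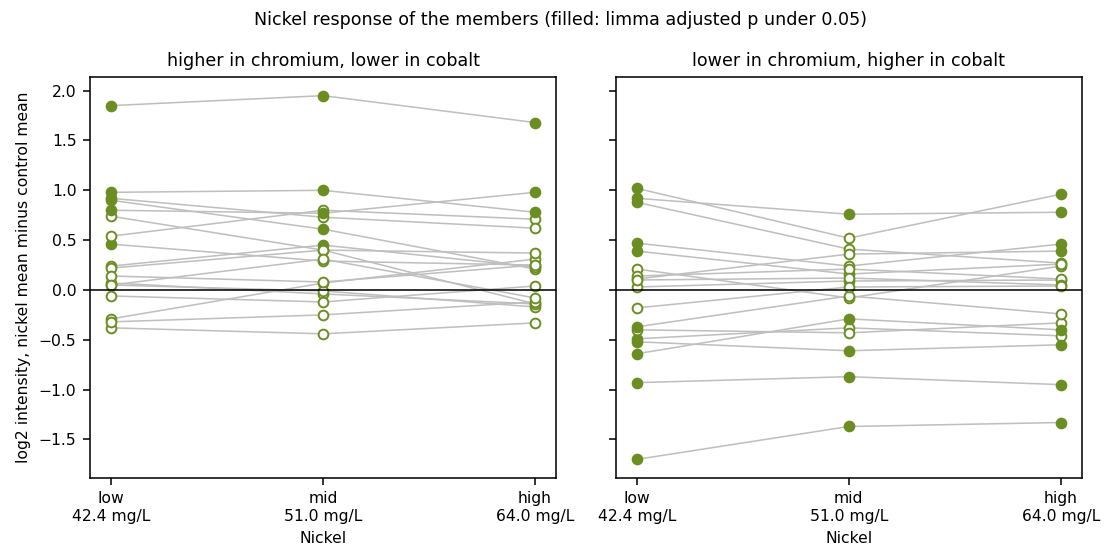
Log2 difference between the mean of 4 nickel-exposed and 4 nickel-labelled control arrays for each of the 18 transcripts of the chromium-up set (left) and of the cobalt-up set (right), at 3 nickel concentrations in mg/L; grey lines join a transcript's values and filled points had a limma adjusted p under 0.05. Every filled point on the left is above 0, while filled points on the right lie on both sides, from -1.70 to 1.02.

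Placed between the other metals at the same named dose, the nickel difference lay between the chromium and the cobalt value in 17, 17 and 18 of the 18 chromium-up members at low, mid and high, and in 15, 16 and 17 of the 18 cobalt-up members. It was nearer to the chromium value in 14, 15 and 16 of the chromium-up and in 9, 8 and 7 of the cobalt-up members. The choice of members placed the chromium and cobalt values on opposite sides of control, each by 0.35 or more. A transcript with little response to nickel therefore falls between them, and the counts in between largely follow from the choice. Such a transcript is nearer to the metal with the smaller difference from control. Whether the response to nickel was intermediate was not tested. The concentrations also differ between metals, and nickel and chromium share their control pools, so all these counts are a description only.

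Repeat arrays of the same control RNA give the size of a difference that no exposure made. In a limma fit with the pool as a block, 4 of 36 members differed between the nickel-labelled and the chromium-labelled control arrays. Lower on the nickel-labelled arrays were ENSDART00000074682 (-0.43 ± 0.09, SE), ENSDART00000078807 (-0.27 ± 0.06) and ENSDART00000043403 (-0.36 ± 0.05), the last named after its value was seen. ENSDART00000083532 was higher (0.44 ± 0.08). Of all transcripts, 1.55% were called higher and 2.75% lower, and without the pool block 0 members were called. The chromium-labelled control arrays entered the choice of members, so this comparison is not free of it. Nothing is read from the count of members against these shares. Such an offset also enters the nickel differences. With the mean of both arrays of each pool as nickel control, the high nickel difference of ENSDART00000078807 was 0.85, against 0.98. That of ENSDART00000083532 was -1.11, against -1.33, and that of ENSDART00000074682 was 0.41, against 0.62. With the nickel-labelled arrays as its controls, chromium kept the direction of all 18 chromium-up and all 18 cobalt-up members at every dose, and 16 and 17 of them stayed past the limit of 0.35. The set medians were then 1.00, 0.65 and 0.81, and -1.05, -0.95 and -0.88. The chromium-exposed arrays chose the members and the control pools are the same, so the kept direction largely follows from the choice.

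The control arrays of chromium and cobalt did not start from the same level. In the chromium-up set, the chromium-labelled control mean was below the cobalt control mean in 16 of 18 transcripts, with a median gap of -0.49 on the log2 scale and a range from -1.79 to 0.61. The cobalt-up set had chromium-labelled controls above the cobalt controls in 12 of 18, with a median gap of 0.55 and a range from -0.57 to 1.31. Transcripts past the floor had a median gap of -0.01, and 19.2% of them had a gap over 0.5 in size, against 8 of 18 and 10 of 18 in the 2 sets. The same control arrays entered the choice of members, and a low chromium control or a high cobalt control favours entry to the chromium-up set, so a gap in this direction follows in part from the choice and nothing is read from these shares. On the nickel-labelled arrays of the same pools, the gap to the cobalt controls had a median of -0.49 in the chromium-up set, negative in 16 of 18. In the cobalt-up set it was 0.47, positive in 12 of 18. Those pools and the cobalt controls entered the choice too. At the high dose, the gap between chromium and cobalt arrays was positive in all 18 chromium-up members, with a median of 1.32 and values from 0.42 to 4.43. It was negative in all 18 cobalt-up members, with a median of -1.56 and values from -3.28 to -0.40. The sign turned between control and high dose in 16 and 12 members, and the gap was wider at the high dose than in the controls in 12 of each set. The remaining members were as far apart or farther apart in the controls than at the high dose. The control gap is between arrays at 0 mg/L, without metal. The labels name no array batch, although the spike-in signal was lower on the cobalt arrays. For levels after exposure, the metal and a difference between the arrays cannot be told apart. The part of the control gap in the opposite responses was not tested.

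**Figure D4:**
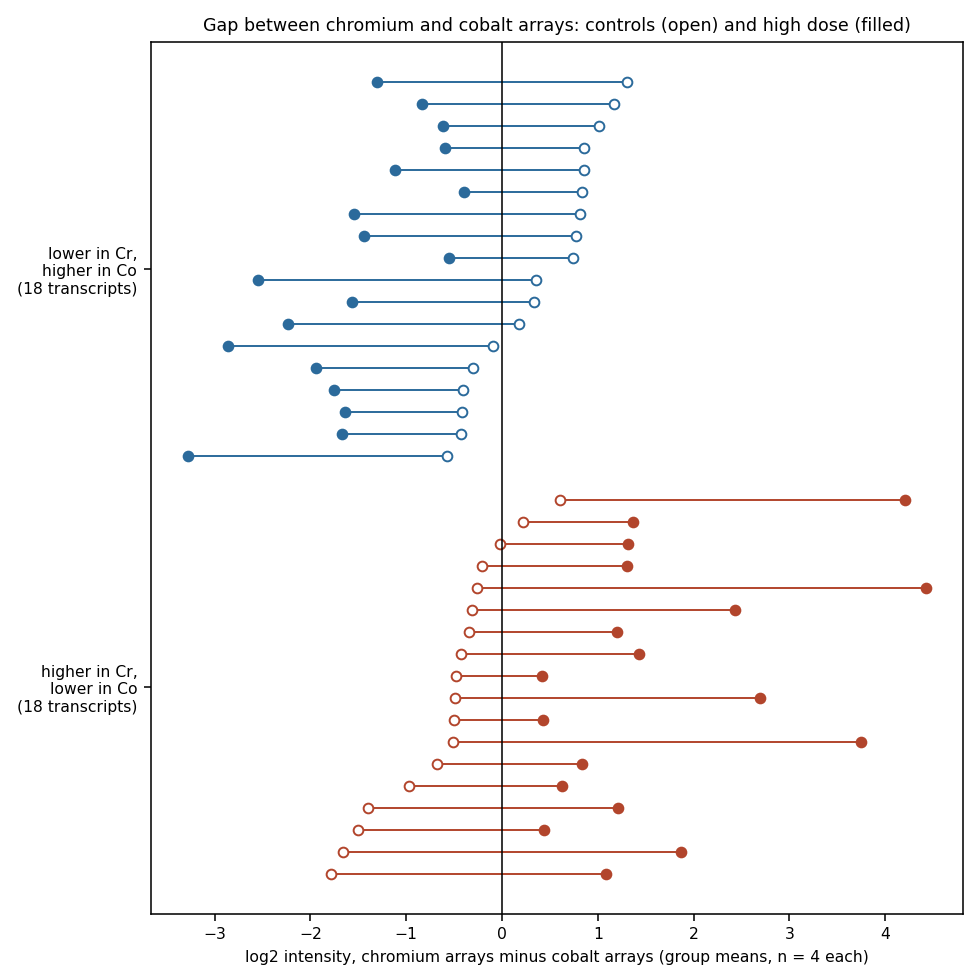
Gap in log2 intensity between chromium and cobalt arrays (mean of 4 minus mean of 4) for each transcript, in the controls (open) and at the high dose (filled); each line is a transcript, red for the chromium-up and blue for the cobalt-up set. The filled points are all above 0 for the chromium-up set and all below 0 for the cobalt-up set, and the open points are on the opposite side in 16 and 12 transcripts.

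Separate probes of a transcript gave a second reading from the same RNA and arrays. Of the 36 members, 35 had 2 probes and 1 had 1. In 33 both probes were on the sides of the transcript mean in all 6 groups, and in 26 both met the limit of 0.35 by themselves. The absolute difference between the 2 probes had a median of 0.17 over 210 pairs of values and reached 2.03. For ENSDART00000091158 the probes gave 1.61 and 1.76 at high nickel, 1.72 and 1.82 at high chromium, and -2.50 and -2.49 at high cobalt. ENSDART00000074682 was less even, with 1.30 and 2.36 at high chromium and -2.18 and -1.37 at high cobalt. The exceptions on side, named after their values were seen, were ENSDART00000051972, with a probe at 0.07 in high cobalt, and ENSDART00000048550, with a probe at a mean log2 intensity of 4.89, below the background limit.

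**Figure D5:**
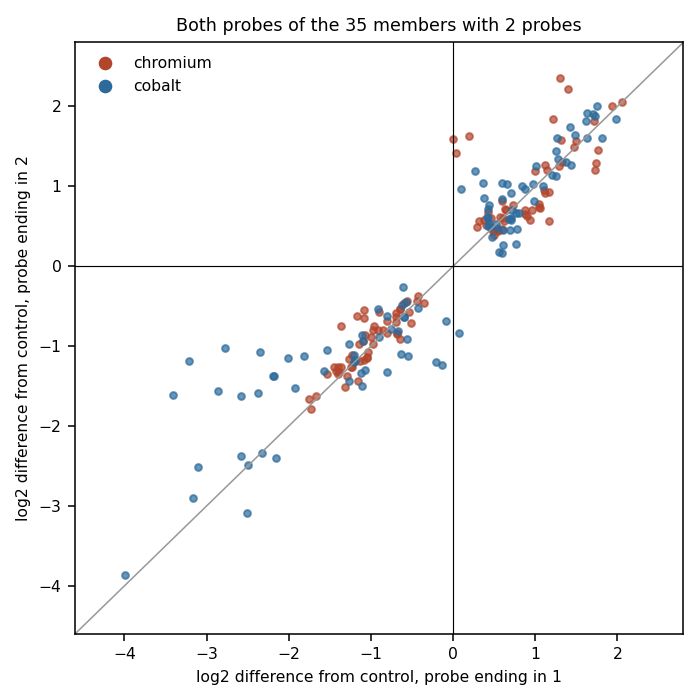
Log2 difference from control of the probe ending in 1 (horizontal) against the probe ending in 2 (vertical) for the 35 members with 2 probes, at 3 doses of chromium (red) and cobalt (blue); the grey line marks equal values. The points run from -3.99 to 2.36 with both probes of the same sign, apart from 2 transcripts with a probe close to 0.

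A few members may not be separate measurements. In 10 of the 36 the probe names carry an x or y, and the sources used here do not give its meaning. Over the 48 arrays and within groups, 2 pairs of such transcripts, named after their values were seen, varied together after group means were removed. ENSDART00000048550 and ENSDART00000055897 had r = 0.892 and ENSDART00000074501 and ENSDART00000074523 r = 0.849, while the next closest pair had r = 0.607. These correlations share arrays and are a description. Counting each such pair once, the chromium-up set would hold fewer independent transcripts than its 18 IDs.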

How the data were processed

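Per the labels' protocols, frozen fish were ground whole and their RNA was extracted, pooled and labelled with Cy3. The authors deposited log2 intensities of 48 arrays, a scale inferred here from the values. The sources used here do not give their background correction, normalization or software. No further normalization was applied. Columns were matched to samples through their labels. The 43714 probes were averaged into 21903 transcripts by the ID without its probe suffix, and 61 rows of control spots were left out. On spots meant to be dark, 99% of 96 values were at or below log2 5, the background limit used.

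R 4.3.3 with limma 3.58.1 (lmFit and eBayes) was run on the 16 arrays of each metal, and Benjamini-Hochberg adjustment covered all transcripts in each contrast, with a threshold of 0.05. The fit was tested on simulated data. At high nickel against control it recovered 70.1%, 92.5% and 100% of transcripts changed 1.5-fold, 2-fold and 4-fold, with 7 false calls among 182. For high against low chromium these were 59.7%, 94.0% and 98.5%, with 8 among 176, and for cobalt 52.2%, 88.1% and 98.5%, with 8 among 167. In the real data, 1771 transcripts were called higher and 1494 lower at high nickel. The simulated rates need not hold at such numbers, nor for dimmer transcripts.

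Members, lists and tests were chosen with earlier results of these data known. The transcripts named are, per direction, the 2 with the largest smallest difference over the 6 groups, the 1 with the largest mean difference, the 2 risers and 2 fallers called at every nickel dose with the largest difference at high nickel; others were named after their values were seen, as said there. A fuller naming rule, which ranked more members by their values, was cut to keep the number of IDs small. Some members called at every nickel dose are therefore not named. The 26 gene and marker lists were written for gene symbols and could not be applied, since 0 IDs matched. No sequence is given, because no sequences of the transcripts were at hand.

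Pairing was checked by correlating deviations from group means. Same-numbered arrays correlated between -0.179 and 0.281 within metals, so the numbers were not used in the main fits. The 4 shared control pools, paired by their titles, correlated between 0.585 and 0.74 and were blocked where their 2 arrays were compared. Alternatives covered the limit and floor, other chromium and nickel controls, quantile normalization and spike-in centring. They also covered single probes, the replicate block, eBayes with trend and robust priors, and leaving out each array. Setting background values to 5 and keeping the transcripts left out for chromium were added after seeing the data.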

Additional observations from a re-analysis of the deposited data

Results flagged for a closer look

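In 120 groups of 4 arrays, each checked for 1 array far from the others, 4 had such an array, where chance gives about 1 in 20. The median difference of the cobalt-up set was 1.03 on mid cobalt replicate 3, against 0.83 to 0.84 on the others of that group. ENSDART00000038524 was at a log2 intensity of 8.49 on mid chromium replicate 2, against 8.12 to 8.18. ENSDART00000019431 was at 10.03 on mid chromium replicate 4, against 10.74 to 10.82, and at 9.09 on nickel-labelled control replicate 4, against 8.76 to 8.81. In 28 members every chromium-exposed array was on one side of its control mean and every cobalt-exposed array on the other. The same held for 0.543% of all transcripts. The choice of members set the group means but not each array, so it largely fixes this difference between metals, which was not tested.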

How the results depend on the processing

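The count of 36 members lay between 27 and 53 under the other settings at a limit of 0.35, and limits of 0.25 and 0.5 gave 78 and 19. Spike-in centring raised the median difference of all transcripts by up to 0.21 in nickel, 0.15 in chromium and 0.25 in cobalt. It gave 44 members, of which 29 were among the 36. Using nickel-labelled controls for chromium gave 53, 32 of them shared. The even division into 18 and 18 became 33 and 20 with those controls, 28 and 16 with the brightest probe and 49 and 29 at a limit of 0.25. Leaving out single arrays gave 31 to 43, and 22 members were found in all 32 of those settings. Of the other settings, 9 kept the limit of 0.35 and the exclusion of transcripts far lower in chromium. In all 9 of these, 21 members were found, and 17 were found in all settings of both kinds. Among the 9, a floor of 6 could not remove a member, and quantile normalization kept all 36. Keeping the 3 transcripts left out for chromium gave 39, a setting chosen after seeing the data, as was setting background values to 5, which gave 36. Counts of members called at low, mid and high nickel, 17, 10 and 11, were 16, 12 and 11 with the replicate block. They were 8, 7 and 7 where every probe had to be called. The mean of both arrays of each shared pool gave 18, 13 and 11, with 5 higher and 6 lower at high nickel. Spike-in centring gave 13, 12 and 15. Of these, 10 were higher and 2 lower at mid nickel (6 and 4 without it), and 13 and 2 at high nickel (7 and 4). Centring raised the median difference of all transcripts by 0.2 at mid and 0.21 at high nickel, which favours higher calls across the array. Shares of all transcripts are not given for these settings, and nothing is read about the members. Without single arrays the counts were 12 to 15, 9 to 11 and 8 to 11. For high against low chromium, 1 member was called, 0 with the replicate block, 0 with quantile normalization, 2 with spike-in centring and 0 to 3 without single arrays. In cobalt 1 was called, 1 with the replicate block, 3 with spike-in centring and 0 to 1 without single arrays. The 4 members that differed between arrays of the same control pools became 0 without the pool block. With the replicate block, the adjusted p was 0.051 for ENSDART00000104586 at high nickel and 0.0754 for ENSDART00000019431 in chromium. Of the recomputed values of single transcripts that were called, 74 kept the call and 22 lost it. Of those not called, 25 stayed so and 3 became called, and 0 of all changed direction. Signal near background limits the differences of ENSDART00000074682, ENSDART00000079314 and, through 1 of its probes, ENSDART00000048550. It may also limit the chromium differences of ENSDART00000104586 and the high cobalt difference of ENSDART00000019431.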
